A study of Mus musculus with 96 samples.

Results

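The genes described here encode the nuclear subunits of oxidative phosphorylation, the mitochondrial respiratory chain and the ATP synthase that it drives. They were chosen by name: every protein-coding mouse gene whose symbol starts with Nduf, Uqcr, Atp5 or Sdh, or with Cox4, Cox5, Cox6, Cox7 or Cox8. The rule found 98 of the 37945 genes of the table, and 95 of these were among the 15760 genes that reached 0.5 TPM in 2 or more libraries and were tested. Cox7b2, Cox8c and a duplicate record of Atp5o stayed below that level. Of the 95, 74 are structural subunits in their widespread form, 5 are tissue-restricted or stage-restricted isoforms of complex IV subunits, 12 are assembly factors that carry an Nduf or Sdh name, and 4 (Ndufa4, Ndufa4l2, Cox7a2l and Atp5s) fall in none of these classes.

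RNA came from 96 samples of cultured osteoblasts, the bone-forming cells, of 42 Collaborative Cross strains, a panel of recombinant inbred mice bred from several founder strains. Cells were released from the skull vaults of untreated pups aged 3 to 5 days, grown for 48 h and kept in mineralizing medium for 10 days, and this was the same for every strain, so that the strain is the only group. A CC030 sample was sequenced 2 times and is counted as 1 library, the mean of both runs, which leaves 95 libraries. Most strains (31) have 2 libraries, CC059 and CC075 have 3, 6 strains have 4, and there is a single library each for CC011, CC024 and CC035. The labels name no sex, litter or batch and do not tell if libraries of 1 strain stem from different pups or cultures. All p-values therefore rest on library-to-library spread alone, part of which may be technical.

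Complex I (NADH dehydrogenase, the Nduf genes) and complex II (succinate dehydrogenase, the Sdh genes) pass electrons to ubiquinone, complex III (the Uqcr genes) hands them to cytochrome c, and complex IV (cytochrome c oxidase, the Cox genes) reduces oxygen. Complexes I, III and IV pump protons across the inner membrane, and ATP synthase, also called complex V (the Atp5 genes), lets them back to make ATP. Every complex except II also holds subunits encoded in the mitochondrial genome, so its assembly needs both sets. In osteoblasts, glycolysis supplies much of the ATP, and respiration is known to change as the cells mineralize.

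Levels are given as scaled TPM, a length-corrected share of each library's transcripts, divided by 1 factor per library (0.772 to 1.27) that corrects for differences in composition. Levels of different genes can therefore be compared, but TPM keep no record of the number of reads, and the depth of each library is unknown. Between 10783 and 12334 genes reached 1 TPM in a library. All 11 osteoblast markers were among the genes tested, and their summed level ran from 11947 to 27578 scaled TPM over strains. The 13 macrophage markers were tested as well, with sums from 67.2 in CC005 to 5234 in CC030. Of 4 other kinds of cell, markers were low in every strain: skeletal muscle (5 of 8 tested, sums of 1.36 to 7.02), endothelium (3 of 5, 0.358 to 2.30), red blood cells (2 of 5, 0.102 to 1.22) and neural cells (4 of 6, 2.28 to 9.90). The cultures are bulk samples, so fewer cells of a type and less RNA per cell cannot be told apart.

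The oxidative phosphorylation genes were abundant. Their summed level had a median of 6807 scaled TPM over the 42 strains and ran from 5534 in CC030 to 7979 in CC025, a 1.44-fold spread. Subunits of complexes IV and V stood highest, with median gene levels of 147 and 113 scaled TPM, then complex III with 86.0, complex I with 47.4 and complex II with 40.8. The assembly factors and the tissue-restricted isoforms stood lowest, with medians of 6.28 and 6.25.

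Subunits of 1 complex differed in level. In complex I, the lowest core gene was Ndufs1, which carries iron-sulfur clusters of the electron path, at a median of 22.5 over strains. In complex II, Sdhc and Sdhd, the membrane anchors, were the lowest and highest at 29.4 and 46.7. In complex III, Uqcrfs1, the Rieske iron-sulfur protein, had the lowest core level at 32.9 and Uqcrc1, a core protein, the highest at 46.9. The small accessory subunits of that complex were more abundant than its core, up to Uqcrh, the hinge protein, at 227.5. In complex IV the order ran from Cox5a at 54.7 to Cox4i1, the largest nuclear subunit, at 284, which was also the highest median of all 95 genes. In complex V, Atp5b, the catalytic beta subunit, led with 267, and Atp5g2, 1 of the genes for the rotor subunit c, was lowest with 2.76 as a result of a split between strains that is described further on.

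**Figure D1:**
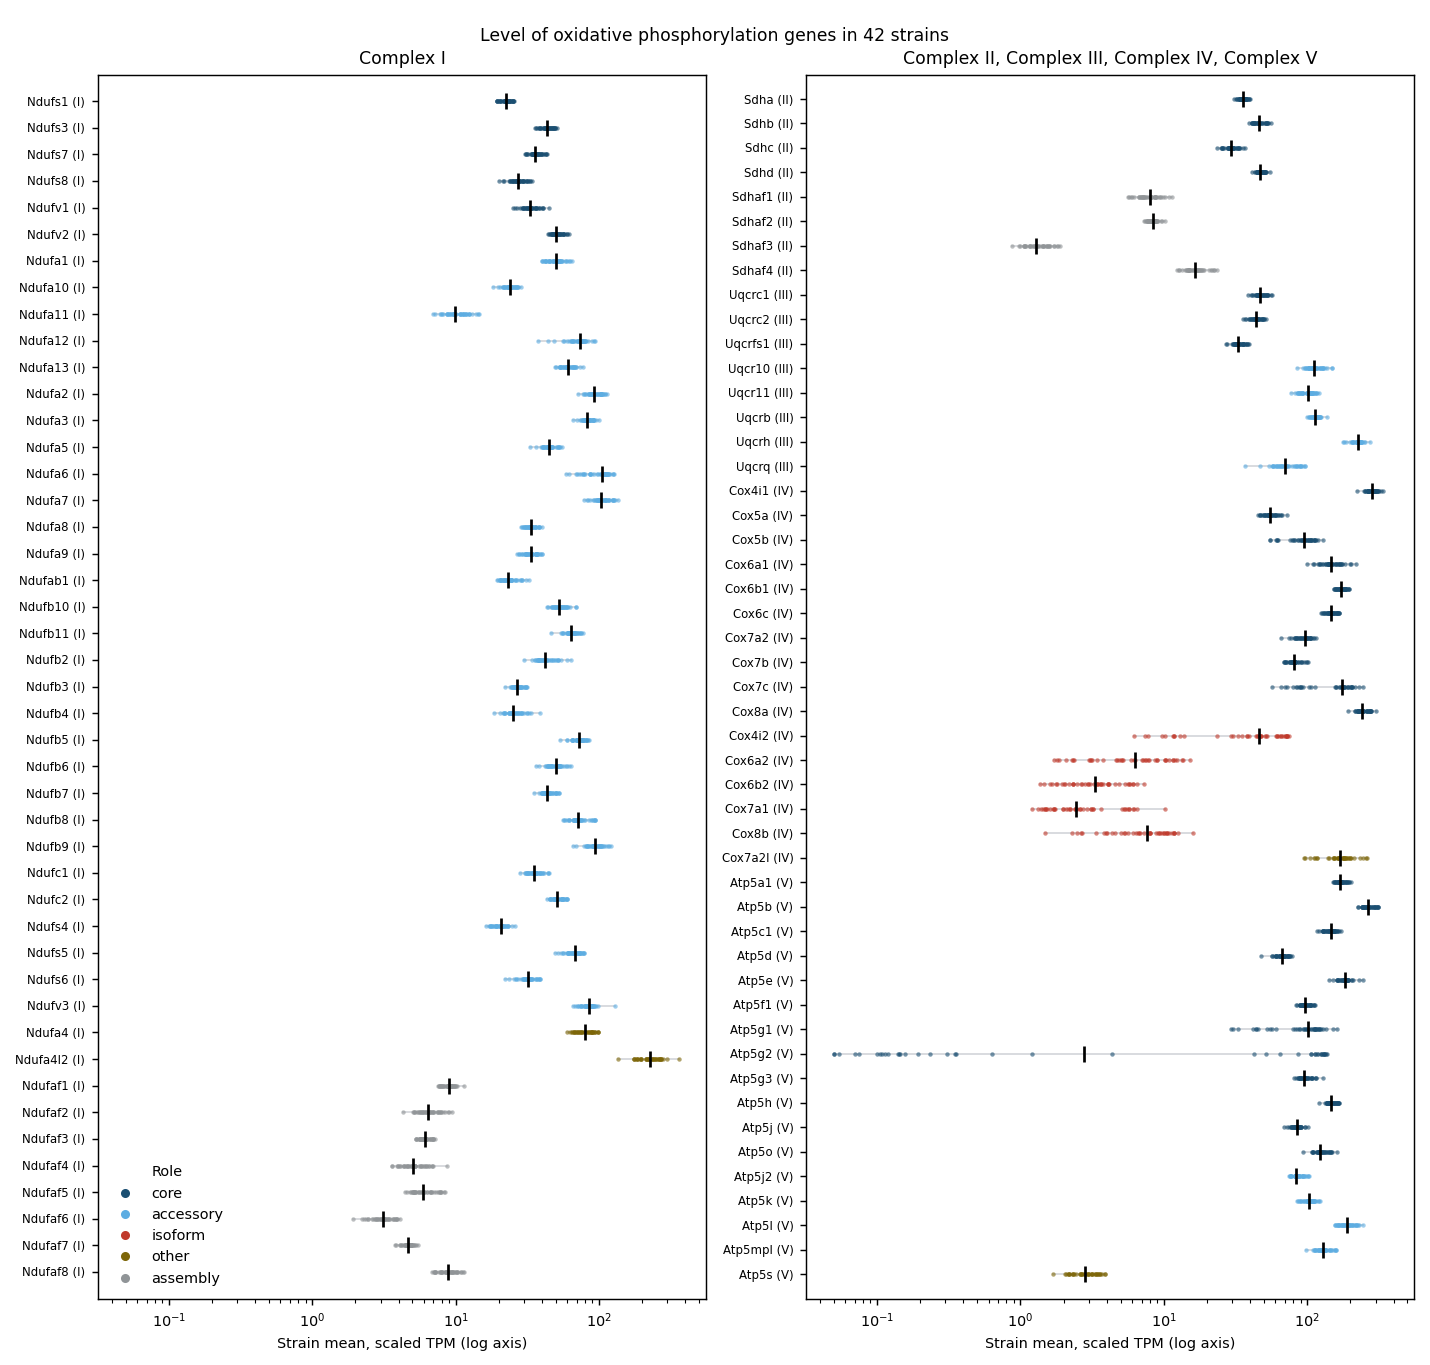
Strain means of 94 of the genes tested, in scaled TPM on a log axis: each point is 1 of 42 strains, the black tick is the median over strains and the colour gives the role. Values below 0.05, which occur for Atp5g2 alone, are drawn at 0.05. All 10 widespread nuclear subunits of complex IV carry the colour of core subunits. Most genes keep within a narrow band, while the complex IV isoforms and Atp5g2 spread widely.

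Most of the genes differed between strains, but the differences were small. In limma's moderated F test over the 39 strains with 2 or more libraries, 79 of 95 passed at a false discovery rate of 0.05, where 81.5% of all genes tested passed; this share of 83.2% is near the background. The range between the lowest and highest strain mean had a median of 0.68 on the log2 scale (1.60-fold), against 1.02 (2.03-fold) over all genes tested and 0.89 among the 2527 protein-coding genes with a mean of 20 scaled TPM or more. By class, 61 of 74 structural subunits, 9 of 12 assembly factors, 5 of 5 isoforms and 4 of 4 others passed. By complex, 38 of 46 passed in I, 7 of 8 in II, 6 of 8 in III, 13 of 16 in IV and 15 of 17 in V. Among the 20 strains whose libraries carry title numbers at least 20 apart, 33 of the 95 (34.7%) passed, against 41.6% of all genes. That fit kept 2 libraries per strain, those of lowest and highest number. Among the 19 strains with title numbers at most 5 apart, 81 of the 95 passed, and the share of all genes in that fit is not given here. Of all strain-by-gene comparisons, 14.5% were called higher and 14.4% lower in these 19 strains, against 3.35% and 2.92% in the 20. The labels do not explain the title numbers, and the cause of this difference was not tested.

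The 16 genes that missed the threshold included abundant ones. Cox8a, a small widespread subunit of complex IV, had library values of 156, 247 and 338 scaled TPM (lowest, median and highest; limma adjusted p = 0.19). Cox6b1, which faces the cytochrome c side, had 137, 172.99 and 230 (adjusted p = 0.43), and its strain means spanned 1.26-fold. Cox6c had 113, 148 and 196 (adjusted p = 0.32). Uqcrb, Uqcr11, Atp5k, Atp5j2, Ndufv3, Ndufa3 and Ndufc2 were the next in level, with adjusted p from 0.079 for Atp5j2 to 0.78 for Ndufa3. For these genes the strains overlapped, and the spread between libraries of 1 strain was of the size of the spread between strains. Some calls turn on the scaling: with none, Cox6c, Uqcr11, Ndufv3, Ndufa3, Cox8a and Atp5j2 passed.

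The subunit genes rose and fell together across strains. Over the 42 strain means, the median Pearson's r between pairs of the 95 genes was 0.31, against a value near 0 between pairs of all genes tested and 0.03 among the abundant protein-coding genes named above. Within complexes, the median for structural subunits was 0.41 in I (36 genes), 0.27 in II (4), 0.37 in III (8), 0.47 in IV (10) and 0.37 in V (16). These correlations describe strain means that share libraries and scaling factors, and their points are not independent of the strains' relatedness.

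The medians of whole complexes were closer still, with complex II apart. The median deviation of complex I subunits from their mean over strains followed that of complex V with r = 0.92 (rho = 0.87), complex IV with r = 0.90 (rho = 0.86) and complex III with r = 0.89 (rho = 0.84). Complex II, which works in the citrate cycle as well as the respiratory chain, followed complex I with r = 0.53 (rho = 0.52), complex III with r = 0.58 (rho = 0.61), complex IV with r = 0.52 (rho = 0.51) and complex V with r = 0.66 (rho = 0.69). It had 4 subunit genes, and its summed level spanned 1.22-fold over strains, against 1.45-fold for complex I, 1.44-fold for III, 1.52-fold for IV and 1.43-fold for V. These sums include genes whose levels are uncertain, as described further on, among them Cox7c and Cox5b in IV and Atp5g1 and Atp5g2 in V.

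**Figure D2:**
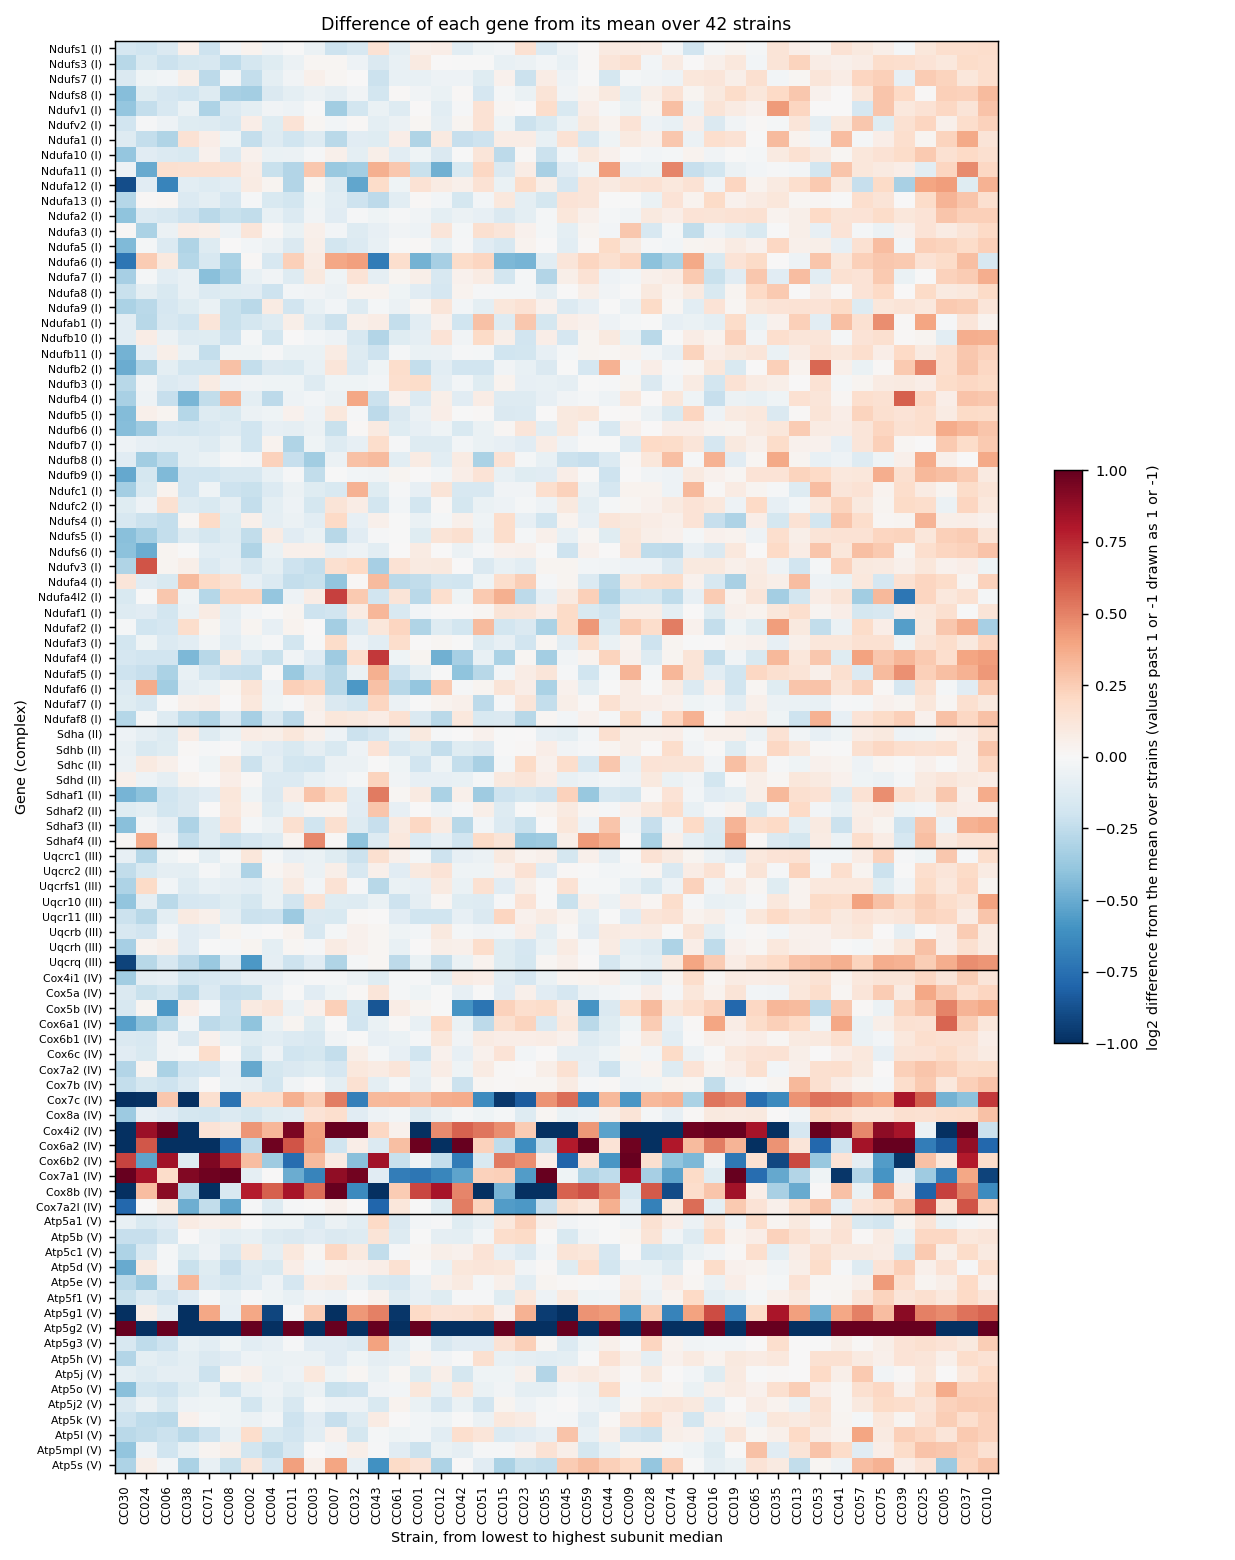
Difference of 94 of the genes tested (rows, by complex) from its mean over 42 strains, on the log2 scale of scaled TPM with colours ending at 1 in either direction, with strains in order of the median over 74 subunit genes. Most rows shift from blue on the left, led by CC030, to red on the right, and the isoform rows of complex IV, Cox7c, Atp5g1 and Atp5g2 follow other orders.

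Some genes tracked the rest closely and a few ran apart. Each gene was compared with the median of the other 74 or 73 structural subunits. Ndufb6, an accessory subunit of the membrane arm of complex I, was highest with r = 0.90 (rho = 0.85), and Ndufa2, Uqcrq, Ndufb9, Cox4i1, Atp5o, the stalk subunit of ATP synthase that confers oligomycin sensitivity, and Ndufs8, an iron-sulfur subunit of complex I, all had 0.83 to 0.90. At the other end, Cox7a1, the heart and skeletal muscle form of a complex IV subunit, had r = -0.53 (rho = -0.42). Cox6b2, known from testis, had -0.15 and Ndufa4l2, a hypoxia-induced relative of Ndufa4, had -0.04. Among all 95 genes the median was 0.57, among the 12 assembly factors 0.40 and among the 5 isoforms 0.09.

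The promoters of 3 of the closest followers, and of Cox7a1, each with a single listed promoter, are shown here, because NRF1, the ETS protein GABPA and YY1 are known regulators of respiratory chain genes. Each run covers the 250 bases before the RefSeq start site and 30 after it, 5′ to 3′ along the gene, in build GRCm38.p6. Capitals mark matches to 1 of 6 searched motifs.
Ndufb6, chr4:40279392-40279671, minus strand: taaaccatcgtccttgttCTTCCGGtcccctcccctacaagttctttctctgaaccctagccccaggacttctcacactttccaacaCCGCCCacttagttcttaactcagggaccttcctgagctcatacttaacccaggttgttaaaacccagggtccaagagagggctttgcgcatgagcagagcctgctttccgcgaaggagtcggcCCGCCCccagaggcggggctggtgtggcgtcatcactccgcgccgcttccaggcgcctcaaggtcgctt
Atp5o, chr16:91931601-91931880, minus strand: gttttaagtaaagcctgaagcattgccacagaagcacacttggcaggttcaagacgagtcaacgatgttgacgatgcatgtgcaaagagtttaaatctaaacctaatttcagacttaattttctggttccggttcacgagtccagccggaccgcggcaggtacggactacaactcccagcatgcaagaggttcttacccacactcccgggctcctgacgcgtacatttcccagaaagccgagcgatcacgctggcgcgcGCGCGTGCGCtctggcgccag
Ndufs8, chr19:3912745-3913024, minus strand: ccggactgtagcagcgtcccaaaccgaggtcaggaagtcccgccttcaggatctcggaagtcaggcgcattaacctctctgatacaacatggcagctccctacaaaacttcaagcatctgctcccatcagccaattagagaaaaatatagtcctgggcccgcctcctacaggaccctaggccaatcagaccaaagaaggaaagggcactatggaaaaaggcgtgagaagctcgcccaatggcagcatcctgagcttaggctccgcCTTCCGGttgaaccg
Cox7a1, chr7:30183921-30184200, plus strand: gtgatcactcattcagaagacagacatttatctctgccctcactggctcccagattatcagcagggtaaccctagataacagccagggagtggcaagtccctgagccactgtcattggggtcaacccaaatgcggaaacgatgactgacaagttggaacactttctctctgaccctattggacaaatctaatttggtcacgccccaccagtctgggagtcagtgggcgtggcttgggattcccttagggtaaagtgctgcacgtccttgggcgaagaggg

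The Ndufb6 run holds an ETS match near its 5′ end and GC box matches 163 and 39 bases before the start, all on the opposite strand. The Atp5o run holds an NRF1 match that begins at base 10 after the start, and the Ndufs8 run an ETS match on the opposite strand at base 16. The Cox7a1 run holds none of the searched letters. RefSeq promoters of 300 bases were listed for 79 of the 95 genes (84 promoters, with Atp5f1 as Atp5pb and Atp5s as Dmac2l). The NRF1 letters, GCGC, any base, then TGCGC, occurred in 22 of the 84 (26.2%), against 4.60% of all 32851 promoters and 9.16% of those of tested genes. CCGGAAG (ETS) occurred in 25.0%, against 8.86% and 16.3%, and AAGATGGC (YY1) in 13.1%, against 2.75% and 4.15%. TCAAGGTCA (ERR) occurred in 2.38% (all promoters 0.423%, tested genes 0.293%), TGACGTCA (CRE) in 4.76% (1.79% and 2.85%) and GGGCGG (GC box) in 46.4% (35.7% and 60.8%). Both strands were searched. A match is a run of letters and not a measured binding site.

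Per strain, the median deviation of the 74 subunit genes from their mean over strains ran from -0.28 in CC030 to 0.19 in CC010 on the log2 scale. The libraries of most strains overlapped with those of their neighbours in this order. CC030 was lowest, with libraries at -0.30 and -0.225, the latter close to replicate 2 of CC038 at -0.216. CC024, with 1 library at -0.15, came next in the order. CC005, CC037 and CC010 formed the high end with 0.17, 0.19 and 0.19. This order depends on the scaling. Without scaling, the median of the 95 genes against the other strains was -0.08 in CC030, -0.16 in CC040, -0.08 in CC005 and -0.08 in CC037. The medians of all genes tested were then 0.15, -0.15, -0.21 and -0.22 in these strains. The 2 runs of the CC030 sample differed by a median of 0.06 over the 95 genes, run 2 higher, once each run was centred on the median of all genes.

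**Figure D3:**
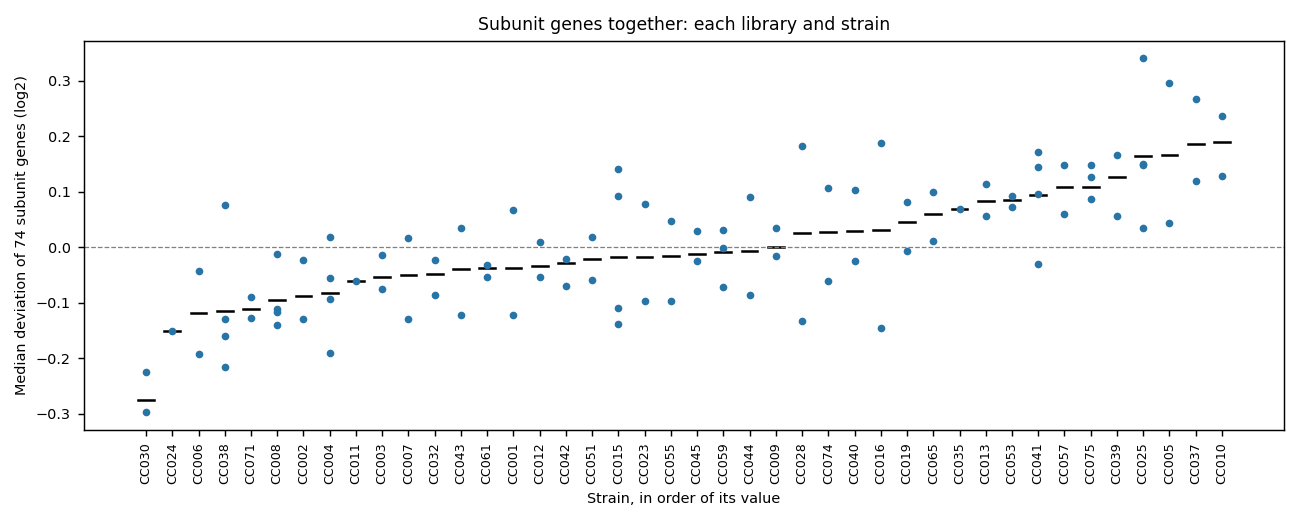
Median deviation of 74 subunit genes from their means over strains, on the log2 scale of scaled TPM: points are libraries, the black bars are strain values, and strains are in order of their value. Both CC030 libraries lie below all others, and the libraries of 1 strain often span as much as several neighbouring strains do.

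Each strain was also compared with the mean of the other strains, with limma and adjustment over all genes and strains together. These comparisons share libraries, since each strain is part of the others' reference. Over the 39 strains, 253 strain-by-gene comparisons among the 95 genes were called higher (6.83%) and 241 lower (6.5%), against 7.72% and 7.08% over all genes, so these totals are slightly below the background. CC030, CC038 and CC008 had the most genes called lower, and CC025, CC075 and CC010 the most called higher. These counts depend on how the libraries are scaled. In CC030 the scaling moved the median of all genes from 0.15 to -0.01, in CC025 from -0.12 to -0.02 and in CC010 from -0.12 to -0.01, and the medians of the 95 genes are given below beside those of all genes under both.

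In CC030, 46 of the 95 genes were called lower, where 13.2% of all genes tested were. Called higher were 2 of the 95, where 16.8% of all genes tested were. The called genes were lower by a median of 1.33-fold, and 88 of the 95 lay below the other strains' mean. The median of the 95 was -0.28 against -0.01 for all genes, and -0.08 against 0.15 without scaling, when 18 genes were called (6.07% of all genes). The genes called lower included 23 of 46 in complex I, 1 of 8 in II, 5 of 8 in III, 8 of 16 in IV and 9 of 17 in V. Without the CC030 sample that was sequenced 2 times (replicate 1), 21 were called. Among strains with distant title numbers, 26 were called (7.35% of all genes). The shift was not particular to these genes. Of the cytoplasmic ribosomal protein genes, 69 of 92 were called lower in CC030 and 7 higher. Of the mitochondrial ribosomal protein genes, 34 of 78 were called lower and 0 higher.

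Among the genes called lower in CC030, the largest changes were in isoforms and small subunits. Atp5g2, with a mean of 42.4 scaled TPM, and Cox7a1, with 10.2, were called higher. Cox4i2, the lung and hypoxia form of the subunit made by Cox4i1, was at 2.92 and 12.7 scaled TPM in the 2 libraries, against a median of 43.4 elsewhere, 5.34-fold lower (adjusted p = 1.7e-09). Atp5g1, a gene for the rotor subunit c, was at 32.8 and 28.2 against 103 (2.81-fold, adjusted p = 2.4e-12). Cox7c, a small complex IV subunit, was at 42.8 and 70.4 against 173.3 (2.66-fold, adjusted p = 2.8e-12). Both Atp5g1 libraries and the lower libraries of Cox4i2 and Cox7c lay at or near the low edge of all libraries. Atp5g1 and Cox7c are tied to partner records described further on. With these added, Atp5g1 differed by -0.42 on the log2 scale (adjusted p = 0.0024) and Cox7c by -0.17 (adjusted p = 0.31), so the call of Cox7c was lost. The partners were chosen for running against these genes over the same strains and narrowing their range. Smaller differences with partners added, here and in the strains below, follow in part from that choice. Cox6a2, the muscle form of Cox6a1, was at 0.828 and 2.91 against 5.50 (2.88-fold, adjusted p = 0.00028), and Cox8b, the muscle form of Cox8a, at 1.41 and 3.87 against 7.58 (2.40-fold, adjusted p = 0.026). The calls of Cox6a2 and Cox8b were lost without replicate 1, with adjusted p of 0.19 and 0.50.

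Markers of other cells moved with CC030. All 13 macrophage markers were called higher there, with sums of 4079 and 6388 scaled TPM against 43.6 to 4014 in the libraries of other strains (median 519), and 7 of 11 osteoblast markers were called lower, with sums of 11717 and 14286 against a median of 18648. Csf1r, the receptor that defines macrophages, was at 75.7 in CC030 and at 0.848 in the lowest strain, and Sp7, a transcription factor that osteoblasts need, was at its lowest in CC030, 7.75 against a median of 36.6. The part of these cells in the lower oxidative phosphorylation values was not tested.

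In CC038, 25 of 95 genes were called lower (14.1% of all genes tested) and 3 higher (16.1% of all genes tested). Of those called lower, 12 were in complex I. The median of the 95 was -0.12 against a value near 0 for all genes, and -0.08 against 0.04 without scaling, when 15 were called (9.35% of all genes). The largest differences among abundant genes were those of Atp5g1, at 25.9 to 33.4 in the 4 libraries against a median of 104 elsewhere (2.91-fold lower, adjusted p = 1.3e-18), and Cox7c, at 58.0 to 76.1 against 174 (2.22-fold, adjusted p = 2.6e-14). Cox4i2 was at 5.21 to 9.88 against 43.9 (4.71-fold, adjusted p = 4.1e-13) and Cox6a2 at 0.883 to 3.83 against 5.63 (2.97-fold, adjusted p = 3.0e-07). Atp5g2 was at 0.107 to 0.382, on the low side of its split. With the partner records added, the differences of Atp5g1 and Cox7c were lost, at -0.04 (adjusted p = 0.79) and near 0 (adjusted p = 0.99), and that of Atp5g2 became -0.40 (adjusted p = 0.00035). Without replicate 2 or replicate 3 of CC038, 13 or 14 genes were called, and 5 among strains with distant title numbers (3.44% of all genes). Ribosomal protein genes shifted as well, with 69 of 92 cytoplasmic ones called lower (9 higher) and 29 of 78 mitochondrial ones (1 higher). In CC038, 5 of 6 proliferation markers (sums of 49.9 to 213 against a median of 37.7 elsewhere), 3 of 4 adipocyte markers (7.67 to 166.7 against 5.03), 6 of 13 macrophage markers (514 to 2119 against 519) and 3 of 4 osteoclast markers (378 to 401 against 218) were called higher. The other osteoclast marker, Atp6v0d2, was called lower. The part of these cells was not tested.

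In CC008, 18 of 95 were called lower (11.6% of all genes tested) and 4 higher (12.9% of all genes tested). The median of the 95 was -0.09 against -0.0047 for all genes, and -0.11 against -0.02 without scaling. Cox7c was at 71.2 to 93.5 in the 4 libraries against 174 elsewhere (1.73-fold lower, adjusted p = 6.4e-09). Cox7a2l, a factor that joins complexes III and IV in supercomplexes, was at 90.3 to 140 against 172.6 (1.45-fold, adjusted p = 2.9e-05), and Ndufa7, an accessory subunit, at 76.6 to 85.3 against 105 (1.28-fold, adjusted p = 0.00029). Cox6a2 was at 2.30 to 3.80 against 5.63 (1.67-fold, adjusted p = 0.017), and this call was lost without replicate 1 (adjusted p = 0.10). Atp5g2 was at or below 0.181. With copies and partner records added, Cox7a2l was still lower, by -0.45 on the log2 scale (adjusted p = 0.00055), and Cox7c turned to higher, at 0.23 (adjusted p = 0.028). The count of 18 fell to 11 without replicate 1 of CC008, to 9 with scaling to the sum over protein-coding genes (7.91% of all genes) and to 2 among strains with distant title numbers (3.27% of all genes). Ribosomal protein genes shifted as well, with 54 of 92 cytoplasmic ones called lower (11 higher) and 12 of 78 mitochondrial ones (4 higher). In CC008, 12 of 13 macrophage markers were called higher (986 to 2541 against a median of 514), and their part was not tested.

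In CC025, 33 of 95 genes were called higher (10.4% of all genes tested) and 1 lower (12.2% of all genes tested). The 33 included 14 of 46 in complex I, 3 of 8 in II, 3 of 8 in III, 6 of 16 in IV and 7 of 17 in V, and their median was 1.22-fold. The median of the 95 was 0.16 against -0.02 for all genes, and 0.03 against -0.12 without scaling, when 10 were called (4.54% of all genes). Cox7a2l had 234 to 270 scaled TPM in the 4 libraries against a mean of 168.06 over the other strains (1.59-fold, adjusted p = 2.9e-07). Ndufb2, an accessory subunit of complex I, was at 51.7 to 67.7 against 41.6 (1.41-fold, adjusted p = 3.7e-05). Cox7c was at 176.6 to 265 against 167.8 (1.50-fold, adjusted p = 6.6e-06), Atp5g1 at 112 to 133 against 99.5 (1.45-fold, adjusted p = 7.4e-05), and Atp5g2 at 127 to 154, on the high side of its split. All of these except Ndufb2 have records that may share their reads. Gm6969, a near-identical copy of Cox7a2l, was at 0.617 scaled TPM in CC025, and whether the genome of CC025 holds the copy was not tested. Gene and copy together were at 260.2 there against a median of 266.1 over the other strains (log2 difference 0.04, adjusted p = 0.85). With partner records added, Cox7c differed by 0.08 (adjusted p = 0.55), Atp5g1 by 0.15 (adjusted p = 0.18) and Atp5g2 by 0.33 (adjusted p = 0.0032). Replicate 3 was the highest of the 4 libraries for subunits as a whole, at 0.34 on the log2 scale, and without it 15 genes were called. With scaling to the protein-coding sum 21 were called (6.46% of all genes), and among strains with distant title numbers 7 (3.00% of all genes). Ribosomal protein genes shifted as well, with 63 of 92 cytoplasmic ones called higher (6 lower) and 30 of 78 mitochondrial ones (0 lower). In CC025, 10 of 13 macrophage markers were called lower (127 to 421 against a median of 538), and their part was not tested.

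In CC075, 27 of 95 were called higher (8.46% of all genes tested) and 3 lower (9.66% of all genes tested). The median of the 95 was 0.10 against -0.01 for all genes, and 0.04 against -0.06 without scaling, when 12 were called (4.58% of all genes). Cox6a2 was at 11.3 to 12.5 in the 3 libraries against 5.29 elsewhere (2.12-fold, adjusted p = 0.0017), and Cox4i2 at 54.3 to 69.0 against 41.8 (1.90-fold, adjusted p = 0.0033). Ndufab1, the mitochondrial acyl carrier protein, was at 30.7 to 34.1 against 23.0 (1.39-fold, adjusted p = 0.00069). A pseudogene, Gm4459, shares 99.8% of 468 bases with Ndufab1, so reads could be split between them, and with both summed the difference was 0.10 (adjusted p = 0.43). Sdhaf1, an assembly factor for the iron-sulfur subunit of complex II, was at 10.1 to 11.8 against 7.64 (1.39-fold, adjusted p = 0.014), a call that was lost without replicate 2 or without replicate 3. Atp5g2 was at 130 to 136, and with its partner record added it differed by 0.23 (adjusted p = 0.10). Without replicate 2 or 3 of CC075, 15 or 13 genes were called. CC075 was among the strains with close title numbers and not among those with distant ones. In the fit of the close strains, 33 genes were called higher (15.2% of all genes). Of the ribosomal protein genes, 17 of 92 cytoplasmic ones were called higher (10 lower) and 21 of 78 mitochondrial ones (0 lower). In CC075, 6 of 13 macrophage markers were called lower (226.2 to 420 against 533). The osteoclast sums, 79.6 to 88.6, lay below every library of the other strains, with 1 of 4 markers called lower, and 3 of 11 osteoblast markers were called higher (20748 to 25790 against 18537). The part of these cells was not tested.

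In CC010, 20 of 95 were called higher (5.34% of all genes tested) and 1 lower (4.80% of all genes tested). The median of the 95 was 0.19 against -0.01 for all genes, and 0.05 against -0.12 without scaling, when 5 were called (2.15% of all genes). The called genes included 11 of 46 in complex I and 4 of 17 in V, and the median of the called genes was 1.28-fold. Cox7c was at 244 and 216 in the 2 libraries against 170 elsewhere (1.62-fold, adjusted p = 0.00012). Uqcrq, the ubiquinone-binding subunit of complex III, was at 114 and 79.1 against 69.8 (1.36-fold, adjusted p = 0.014), Ndufaf5, an assembly factor of complex I, at 9.22 and 7.49 against 6.00 (1.35-fold, adjusted p = 0.0061), and Atp5g1 at 144 and 113 against 101 (1.54-fold, adjusted p = 0.0012). Atp5g2 had a mean of 130.5 ± 3.58 (SD, n = 2). With partner records added, Atp5g1 was still higher, by 0.46 (adjusted p = 0.00077), and the calls of Cox7c (0.16, adjusted p = 0.37) and Atp5g2 (0.23, adjusted p = 0.19) were lost. The count depended on 1 library: without replicate 1, the calls of Atp5g1, Uqcrq and Ndufaf5 were lost. Among strains with distant title numbers, 15 genes were called higher in CC010 (2.94% of all genes). Of the ribosomal protein genes, 10 of 92 cytoplasmic ones were called higher (10 lower) and 18 of 78 mitochondrial ones (0 lower). In CC010, 5 of 13 macrophage markers were called lower (164 and 253 against 529), and their part was not tested.

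Other mitochondrial genes followed the subunits. Over the 42 strain means, the median deviation of 78 mitochondrial ribosomal proteins followed that of the 74 subunit genes with r = 0.91 (rho = 0.86), and 74 of the 78 passed the strain test. For 36 assembly factors outside the name rule it was r = 0.79 (rho = 0.70; 31 passed) and for 14 citrate cycle enzymes r = 0.73 (rho = 0.75; 13 passed). The 13 mitochondrially encoded subunits, the partners of these proteins in complexes I, III, IV and V, had r = 0.19 (rho = 0.17), although 12 of them passed the strain test, and their sum ran from 10171 scaled TPM in CC028 to 18089 in CC051. The 14 tested regulators of mitochondrial genes, among them Nrf1, Gabpa, Esrra, Tfam and Yy1, had r = 0.40 (rho = 0.39; 10 passed). Glycolysis (16 genes, 5 passed) had r = 0.27 (rho = 0.22), and 10 hypoxia-induced genes (5 passed) had r = 0.12 (rho = 0.11). The 92 cytoplasmic ribosomal proteins, a list added after its values were seen, had r = 0.73 (rho = 0.70), and 0.63 without CC030 and CC038. All these lists share the libraries and scaling factors of the subunits.

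The macrophage markers ran against the subunits across all strains, with r = -0.62 (rho = -0.56), and r = -0.54 without CC030 and CC041, the strains farthest from the median of the markers. The 4 osteoclast markers had r = -0.56 and the 4 adipocyte markers -0.46. Osteoblast markers had r = 0.41 (rho = 0.23), and 0.20 without CC030 and CC051. The part of these cell types in the differences of the subunits was not tested.

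**Figure D4:**
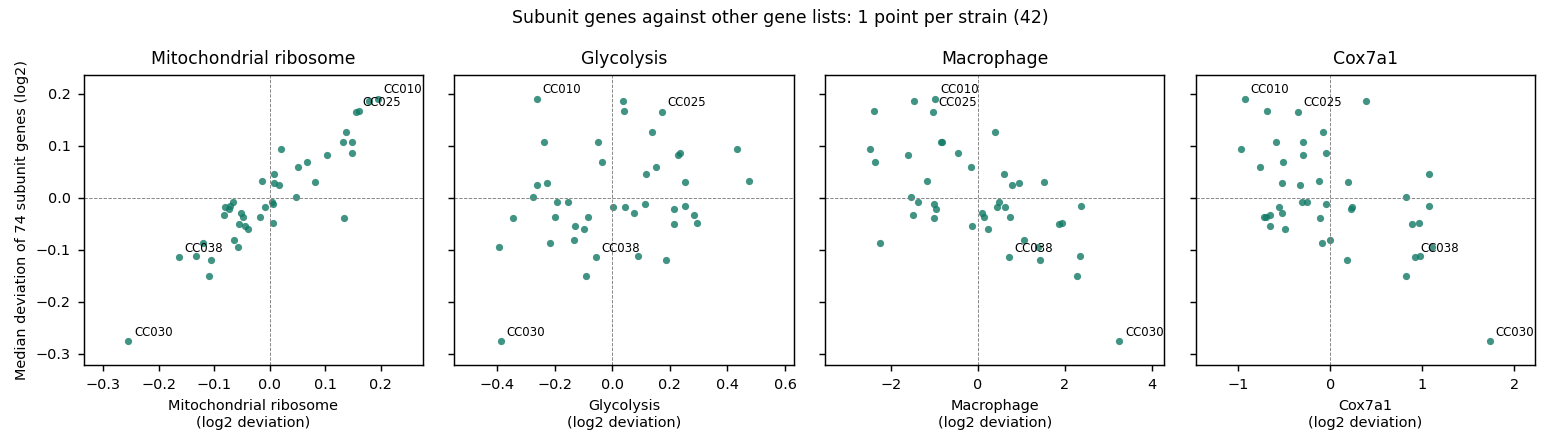
Median deviation of 74 subunit genes (vertical, log2) against that of mitochondrial ribosomal proteins, glycolytic genes, macrophage markers and Cox7a1 (horizontal, log2), 1 point for each of 42 strains. The points rise closely with the mitochondrial ribosome, scatter for glycolysis and fall with the macrophage markers and Cox7a1, and CC030 is the lowest point on the vertical axis of each panel.

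The isoforms of complex IV varied more than its widespread subunits as a class, although Cox7c varied more than Cox6b2, and each was the minor form of its subunit in every library. The 5 isoforms had a median range of 7.59-fold over strains, against 1.58-fold for the 10 widespread subunits of the complex. Cox4i2 held 1.39% to 23.0% of the sum of Cox4i1 and Cox4i2 (median 13.5%). Its library values were 2.92, 42.9 and 86.6 scaled TPM (lowest, median and highest), and strain means ran from 6.18 ± 0.464 (SD, n = 2) in CC074 to 75 ± 8.17 (SD, n = 2) in CC007 (limma adjusted p = 3.6e-18 for strain). The strains fell apart at a gap: 10 strains had means up to 13.9, and the other 32 had 23.4 or more. In the same libraries Cox4i1 spanned 206 to 359.

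Cox6a2 and Cox8b, the heart and skeletal muscle forms, were present at low levels. Cox6a2 had library values of 0.828, 5.59 and 16.6, and strain means from 1.72 in CC028 and 1.80 ± 1.37 (SD, n = 4) in CC038 to 15.3 ± 2.30 (SD, n = 3) in CC059 (adjusted p = 1.4e-12). Its share beside Cox6a1 had a median of 3.97% and reached 12.1% in 1 library. Cox8b had library values of 0.105, 7.56 and 16.3, and strain means from 1.48 ± 0.521 (SD, n = 2) in CC071 to 16 ± 0.415 (SD, n = 2) in CC007 (adjusted p = 4.8e-06). Its share beside Cox8a had a median of 2.79%. Over strains Cox8b followed the osteoblast markers (r = 0.75, rho = 0.73, and r = 0.73 without the 2 farthest strains). The 5 skeletal muscle markers that were tested had sums of at most 7.02 in any strain, and Ckm, Myh3 and Myog stayed below the filter.

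Cox7a1 and Cox6b2 ran in other directions. Cox7a1 had library values of 0.148, 2.43 and 12.3 scaled TPM, and 1 strain stood apart: CC030 had 10.2 ± 2.88 (SD, n = 2), and the next strain 6.52 (adjusted p = 8.5e-08 over strains). It followed the macrophage markers with r = 0.62 (rho = 0.52), and r = 0.53 without the 2 farthest strains. Cox6b2 had library values of 1.13, 3.28 and 8.21, from 1.38 ± 0.359 (SD, n = 2) in CC039 to 7.24 ± 0.323 (SD, n = 2) in CC009 (adjusted p = 6.5e-07). The isoforms did not move as 1 group: over strains, r between pairs of them ran from -0.43 (Cox6a2 and Cox6b2) to 0.28 (Cox4i2 and Cox8b).

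Ndufa4 and Ndufa4l2 made the opposite pattern of levels. Ndufa4, named for complex I and now placed in complex IV, had library values of 53.5, 80.6 and 121, and its hypoxia-induced relative Ndufa4l2 was the higher of the pair in all 95 libraries, with 120, 228.3 and 387. Ndufa4l2 held a median of 75.1% of the sum, from 60.6% in CC039 to 85.7% in CC007. Its strain means ran from 135.1 ± 10.8 (SD, n = 2) in CC039 to 359 ± 26.9 (SD, n = 2) in CC007 (adjusted p = 0.018), and 1 strain was called higher and 1 lower.

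Subunit c of ATP synthase, which forms the turning ring of the membrane part, is made by Atp5g1, Atp5g2 and Atp5g3, whose mature proteins are the same. The last 60 coding bases of each (GENCODE vM21) are shown because the transcripts, unlike the proteins, can be told apart. Capitals mark the 17 positions at which the genes differ.
Atp5g1: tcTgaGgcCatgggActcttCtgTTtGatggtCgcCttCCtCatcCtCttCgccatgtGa
Atp5g2: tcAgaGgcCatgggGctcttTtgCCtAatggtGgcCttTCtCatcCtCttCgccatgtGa
Atp5g3: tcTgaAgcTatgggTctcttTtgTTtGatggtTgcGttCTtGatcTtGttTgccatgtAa

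The level of Atp5g2 fell into 2 sets of strains with nothing between them. In 20 strains the mean lay between 42.4 and 137 scaled TPM, and in 22 it was at or below 4.33, down to 0 in effect. Of the 39 strains tested, 18 were called higher and 21 lower, and no fold is given because many libraries are listed at or near 0. Atp5g1 had library values of 25.9, 102 and 170, with 11 strains at 29.5 to 60.6 and 31 at 80.1 to 160 (adjusted p = 1.0e-22). Single libraries of these sets overlapped slightly, reaching 66.5 in the 11 strains and falling to 64.7 in the 31. Atp5g3 had 78.5, 95.6 and 136 and varied 1.53-fold over strains (adjusted p = 0.00039), like a typical subunit. By share of the sum, Atp5g3 had a median of 44.8%, Atp5g1 36.2% and Atp5g2 0.636%, the last with up to 53.4% in 1 library.

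The splits of Atp5g2 and Atp5g1, and those of Cox7c and Cox5b, came with opposite values of transcripts that the table lists and the annotation does not match to any gene. These partners were found from the data, as unmatched transcripts that ran against a gene of the set over strains with r of -0.75 or below, reached 0.25 of its highest strain level, and brought its log2 range to 0.7 of its size or less when added. The opposite values and the narrower sums given below were thus conditions of the choice and are no test of a shared origin. For Atp5g2 the partner had 164 to 239 scaled TPM in the 22 low strains and 83.6 to 171 in the 20 high ones (r = -0.91). The sum of both ran from 162 to 270 over strains, a 1.67-fold spread. For Atp5g1 the partner had 76.0 to 110 in the 11 low strains and 11.4 to 66.3 in the others (r = -0.78), and the sum spanned 1.84-fold.

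Cox7c showed the sharpest contrast with its partner. It had library values of 42.8, 172 and 265, with 15 strains at 56.6 to 114 and 27 at 157 to 247 (adjusted p = 8.8e-22). Its partner stood at 127.9 to 190 in the 15 low strains and at or below 4.31 in the 27 others (r = -0.92), and the sum spanned 1.86-fold. A pseudogene, Gm12338, that matches a stretch of Cox7c in full, reached 12.3 at most. Cox5b, an early-assembled subunit of complex IV, had 6 strains at 54.8 to 62.5 and 36 at 75.8 or more (adjusted p = 0.00058). Its single libraries overlapped, reaching 91.7 in the 6 strains and falling to 60.5 in the 36. The partner of Cox5b had 8.08 to 32.6 in the 6 and at most 7.48 elsewhere (r = -0.84). For all 4 genes the sets of strains were cut at the largest gap between strain means. With all partners and copies summed into their genes, the log2 range fell from 8.10 to 0.76 for Atp5g2, from 2.43 to 0.86 for Atp5g1, from 2.16 to 0.89 for Cox7c and from 1.35 to 0.87 for Cox5b. All 4 still passed the strain test, with adjusted p from 4.6e-09 for Cox7c to 0.0002 for Cox5b. Which gene the partners come from is not given by the annotation used, so levels of these 4 genes, and the calls on them in the strains above, are uncertain, as are those of Cox7a2l, Ndufab1 and Ndufb4 for the copies named.

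**Figure D5:**
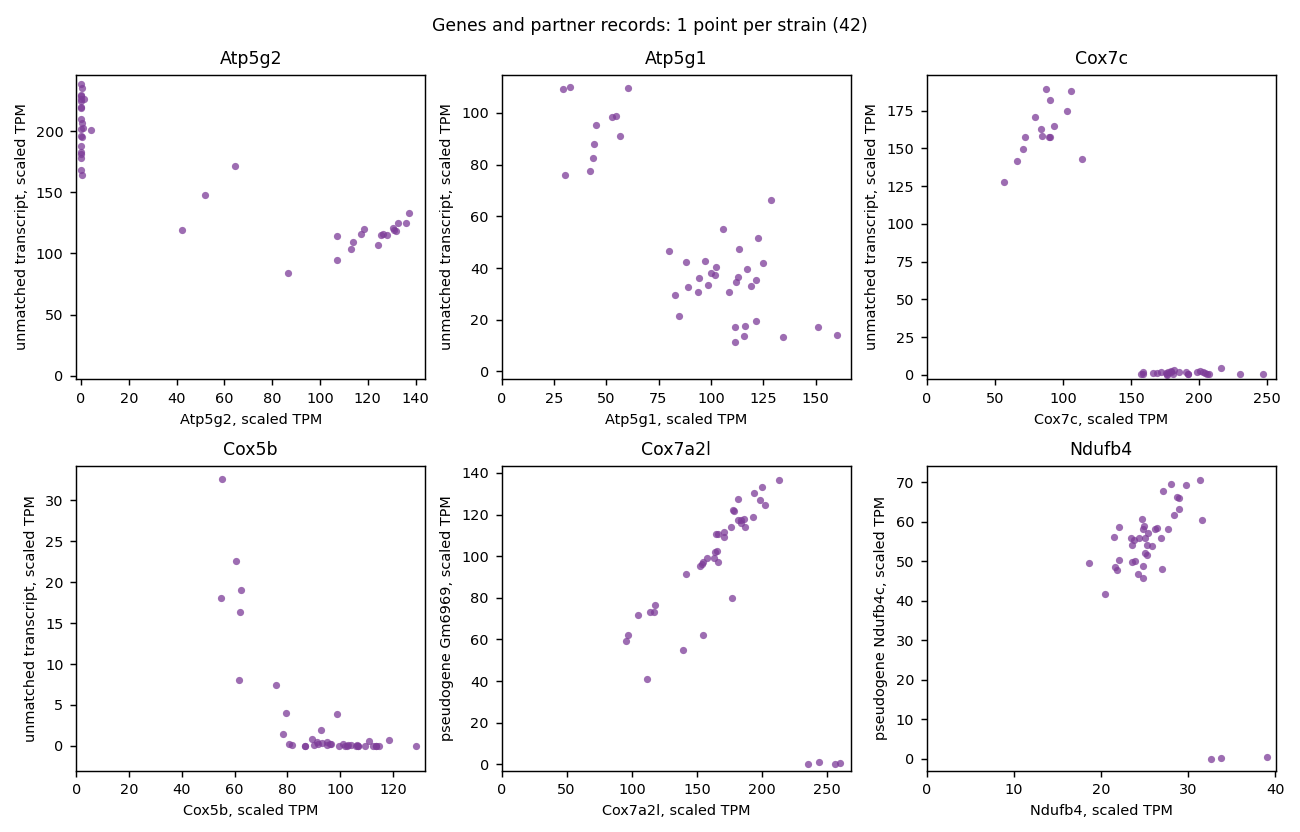
Strain means in scaled TPM of 6 genes (horizontal) and of the record that may share their reads or runs against them (vertical), 1 point for each of 42 strains. For Cox7c the partner is near 0 in 27 strains and 127.9 or more in 15, and the pseudogenes Gm6969 and Ndufb4c are near 0 in the strains with the highest Cox7a2l and Ndufb4.

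Cox7a2l, the supercomplex factor, has a processed pseudogene, Gm6969, that copies its coding sequence. Inbred mouse strains are known to carry a longer or a shorter Cox7a2l protein, and C57BL/6, the strain of the reference genome, has the shorter. The stretch is shown because it is where the reference gene and the copy part (GENCODE vM21, from coding base 184, copy numbered likewise). Capitals mark bases that differ: the copy has 6 more bases after coding base 213, followed by T214A counted on the gene. Over the whole 336 coding bases there was 1 other substitution, C303T.
Cox7a2l: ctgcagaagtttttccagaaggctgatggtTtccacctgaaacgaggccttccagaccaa
Gm6969: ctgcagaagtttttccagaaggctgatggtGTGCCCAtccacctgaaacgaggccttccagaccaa

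Gm6969 was at or below 0.945 scaled TPM in CC025, CC037, CC040 and CC042 and at 40.8 to 137 in the other 38 strains. These 4 strains had the 4 highest levels of Cox7a2l, 235.2 to 260, against 95.3 to 213 elsewhere, and 1 of the 85 libraries of the other strains reached their lowest library. Over all strains Cox7a2l had library values of 80.6, 171 and 270 (adjusted p = 7.8e-13), 4 strains called higher and 7 lower. With the copy added, its range fell from 1.44 to 1.20 on the log2 scale. Cox7a2, the widespread subunit related to it, had 61.4, 93.1 and 137.

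Ndufb4, an accessory subunit of complex I, was likewise highest in the strains where its copy was near 0. Unlike that of Cox7a2l, its range widened with the copy added. Ndufb4c matches 390 bases of Ndufb4 at 100% identity, so no read within them can be assigned to 1 of them. Ndufb4c was at or below 0.334 in CC008, CC032 and CC039 and at 41.8 to 70.7 elsewhere, and these 3 strains had the highest Ndufb4, 32.6 to 39.1 against 18.7 to 31.6, although 10 of 87 libraries of other strains reached their lowest library. Ndufb4 itself had library values of 16.6, 25.5 and 40.3 (adjusted p = 9.5e-07), and with the copy added its range rose from 1.05 to 1.63. In CC008 Ndufb4 was called higher by itself (0.34, adjusted p = 0.0019) and lower with the copy added (-1.25, adjusted p = 4.5e-23). Atp5l also has a copy that matches a stretch of it in full, Gm10221, at 6.06 to 44.7 over strains beside a gene median of 188.4. The relations of Cox7a2l and Ndufb4 to their copies were noticed after the values were seen.

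A few accessory subunits had ranges above 2-fold with no partner of this kind. Uqcrq had library values of 35.2, 70.1 and 114, from 36.6 ± 2.02 (SD, n = 2) in CC030 to 96.9 ± 6.91 (SD, n = 2) in CC037 (limma adjusted p = 1.3e-08), and 6 strains were called higher and 4 lower. Ndufa12, a subunit of the hydrophilic arm of complex I, ran from 37.7 ± 3.48 (SD, n = 2) in CC030 to 93.7 ± 9.62 (SD, n = 2) in CC005 (adjusted p = 1.5e-08). Its pseudogene Gm15920, alike at 99.5% of 402 bases, had a mean of 0.103. Ndufa6, another accessory subunit, ran from 59.3 in CC043 and 62.2 ± 31.5 (SD, n = 2) in CC030, whose libraries differed widely, to 128.2 ± 3.05 (SD, n = 2) in CC032 (adjusted p = 1.5e-06). Ndufa6 had r = 0.36 with the other subunits and Uqcrq r = 0.89.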

How the data were processed

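The authors deposited 1 table of TPM per transcript (per the file headers; each of the 96 columns sums to 1000000). The submitters' processing notes name mm9 and Bowtie. No source used here names the quantifier. Of 94545 named transcripts, 91225 matched GENCODE vM21 by identifier and were summed into 37945 genes (a median of 98.2% of TPM), and 3320 did not match. 1 line names no transcript and is 0 throughout. Copies were found with BLAST 2.17.0 (95% identity over 150 nt or more). Libraries were scaled by a trimmed mean of log ratios. Genes that reached 0.5 TPM in at least 2 libraries entered the tests, which used limma 3.58.1 (R 4.3.3, variance trend) on log2 of scaled TPM plus 0.5, by strain over 39 strains and 92 libraries and for each strain against the mean of the others, with Benjamini-Hochberg adjustment at 0.05. Fold changes are on that scale and understate changes of low genes. Depth is unknown. Alternatives changed pseudocount, filter, scaling, trend, runs, copies and libraries. The members and lists were chosen with earlier results of these data known, and the mitochondrial and cytoplasmic ribosome lists were added afterwards. Named genes were, by rule, the extremes of level in each complex, the 12 largest ranges, up to 10 failing genes, isoform families, and the 5 largest changes in each of 6 strains. Ndufa12, Ndufa6, Ndufb4 and the correlation extremes were added after their values were seen. 1 gene is counted in all totals but not reported by itself here.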

Additional observations from a re-analysis of the deposited data

Results flagged for a closer look

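Among the 6 strains with 4 libraries, 108 sets of values (17 named genes and the median of the subunits) were examined for 1 library far from the other 3, and 10 were found. Chance flags about 1 in 20 such sets. Ndufa7 accounted for 3: 76.6 scaled TPM in replicate 1 of CC008 against 84.4 to 85.3 in the others, 82.3 in replicate 1 of CC015 against 95.7 to 96.8, and 119 in replicate 3 of CC025 against 99.1 to 101. Ndufab1 accounted for 2, with 26.1 in replicate 3 of CC015 against 19.5 to 20.5 and 36.0 in replicate 3 of CC025 against 29.2 to 29.98. Cox6a2 accounted for 2, with 5.85 in replicate 2 of CC004 against 14.1 to 15.1 and 3.83 in replicate 4 of CC038 against 0.883 to 1.33. Cox8b was at 6.36 in replicate 3 of CC015 against 3.91 to 4.08, Sdhaf1 at 7.69 in replicate 4 of CC038 against 6.69 to 6.76, and Atp5g2 at 155 in replicate 4 of CC041 with the lowest of the others at 114.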

How the results depend on the processing

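The count of 79 genes past the strain test stayed between 77 and 81 under every alternative that left out no library and under those without CC030 or CC051, except the strains with distant title numbers, where 33 passed, with 55 comparisons called higher and 64 lower. With those strains, 7 genes were called in CC025, 15 in CC010, 26 in CC030, 5 in CC038 and 2 in CC008. CC075 was not among those strains. With no scaling, the counts were 10 in CC025, 12 in CC075, 5 in CC010, 18 in CC030 and 15 in CC038. With scaling to the protein-coding sum they were 21 in CC025 and 9 in CC008. Leaving out each of the 92 libraries in turn gave 78 to 83 genes past the strain test, 231 to 273 comparisons higher and 225 to 256 lower, 15 to 38 genes in CC025, 13 to 29 in CC075, 3 to 23 in CC010, 21 to 48 in CC030, 13 to 27 in CC038 and 11 to 22 in CC008. Where that left a strain with 1 library, the library was assumed to vary like the others. For the fits with 1 library left out, the share of all genes called was not computed. The strain test was lost for Atp5d without replicate 1 of CC030, for Ndufaf4 without replicate 1 of CC043, for Cox6a1 without replicate 1 of CC030 or of CC005, for Sdhc without replicate 1 of CC051 or replicate 2 of CC044, and for Cox7b without any of 20 libraries. With copies and partners summed, counts shifted but stayed within 1.5 times, and single calls changed direction. Cox7c in CC008 went from -0.79 to 0.23 and Ndufb4 in CC008 from 0.34 to -1.25 on the log2 scale. Across the other alternatives, 8 genes lost and 8 gained the strain test with no scaling, and 46 lost it with distant title numbers. The causes were not tested. Pseudocounts of 0.1 and 1, no filter, no variance trend, 1 run of the repeated sample and copies summed kept all counts within 1.5 times. Leaving out CC030 or CC051, and summing partners, were chosen after seeing the data and kept all counts within 1.5 times. No paired analysis was possible because the labels give no replicate numbers. TPM give no depth, so intervals from counting could not be had.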
